A study of Mus musculus with 12 samples.

Results

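Nr4a1, Nr4a2, Nr4a3, Egr1, Egr2, Egr3, Crem and Ier2 are genes of inducible transcription factors that T cells switch on within minutes to hours of a signal. They were chosen by symbol, and all 17 probes annotated to these 8 genes were followed on 12 arrays with 45281 probes each. The RNA came from mouse CD4+ T cells of the spleen, from animals 2 months old. The strain label is B6.Cg-Tg(TcraTcrb)425Cbn/J, which carries a transgenic T cell receptor, but the study's design speaks of C57BL/6, and which applies to each experiment is not settled. One experiment followed naive CD4+ T cells at 0, 6 and 24 h of interleukin-7 (IL-7), the cytokine that keeps naive T cells alive, on 2 arrays for each time. The other used Th9 cells, the helper T cells that make interleukin-9, which had been grown for 3 days from naive CD4+ T cells, either without IL-7 (Th9) or after 48 h in IL-7 (IL7 Th9), with 3 arrays per group. Every change against 0 h joins IL-7 with time in culture, since no cells were cultured for 6 or 24 h without it.

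The NR4A proteins are orphan nuclear receptors and the EGR proteins are zinc finger factors. Both families are induced by T cell receptor signalling through calcium and MAP kinase pathways. The NR4A proteins, EGR2 and EGR3 are known in T cells for limiting activation and for promoting tolerance. Crem encodes the cyclic AMP response element modulator, whose gene also makes short repressor forms, known as ICER, from an internal promoter that cyclic AMP switches on. Ier2 encodes a small nuclear protein of the immediate early response. Immediate early genes are transcribed without new protein synthesis and their transcripts are short-lived.

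The arrays and the cells were checked first. Replicate arrays correlated at 0.993 at 0 h, 0.962 at 6 h, 0.992 at 24 h, and 0.977 to 0.985 in the Th9 groups. Probes detected at a detection p under 0.01 made up 28.3% to 34.5% of each array. Cd3e, a chain of the T cell receptor complex, was detected on all 12 arrays, and so was Cd4. Il9 was not detected on any naive array and had signals of 366.6 to 578.5 in Th9 and 238.3 to 1100.8 in IL7 Th9. The array of 6 h replicate 1 stood apart. There the summed signal of 9 B cell markers was 10614.5, against 131.6 to 648.8 on the other 5 naive arrays, and 8 of the 9 were highest on it. The sum of 16 myeloid and dendritic cell markers was 8592.5 there, against 1319.8 to 2340.2, with 12 of the 16 highest on it. Among the listed genes, Cd74 had a signal of 4418.3, H2-Ab1 2675.4 and Lyz2 884.2 on this array. Cd79b was less raised, at 292.1 there against 60.2 to 140.3 on the other naive arrays. The sum of 3 erythroid markers was also highest there, at 1413.2 against 44.6 to 476. The members' changes at 6 h are therefore given with and without the array of 6 h replicate 1. The labels do not tell whether replicates were separate mice or cultures, so the p-values reflect the spread between these arrays alone, which may be technical. In bulk RNA, fewer cells of a type and less RNA per cell cannot be told apart.

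Of the 17 probes, 5 were not detected on any array. Detection set which members could be tested. In naive cells 6 of the 8 genes passed the filter, Nr4a1 and Nr4a3 being the others, and in Th9 cells 6 passed, Nr4a1 and Ier2 being the others. The 3 Nr4a promoters and 1 Egr2 promoter are shown because the Nr4a genes are known targets of CREB, the activator counterpart of CREM, and Egr2 of the serum response factor. The sequences are RefSeq windows of 300 bases around the gene start (build GRCm38.p6), which matched 4 of the 8 members. Capitals mark TGACG, the core of the cyclic AMP response element, on either strand (CGTCA), and in Egr2 also a serum response element (CC, 6 of A or T, GG), the site of the serum response factor.
Nr4a1 promoter, chr15:101266596-101266895, plus strand: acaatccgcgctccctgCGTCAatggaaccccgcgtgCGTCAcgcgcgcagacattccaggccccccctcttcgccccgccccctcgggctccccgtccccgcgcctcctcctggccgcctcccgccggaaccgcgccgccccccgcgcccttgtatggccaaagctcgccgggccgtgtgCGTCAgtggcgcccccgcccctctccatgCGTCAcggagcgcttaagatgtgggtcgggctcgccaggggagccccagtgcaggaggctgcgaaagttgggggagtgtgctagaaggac
Nr4a2 promoter, chr2:57123954-57124253, minus strand: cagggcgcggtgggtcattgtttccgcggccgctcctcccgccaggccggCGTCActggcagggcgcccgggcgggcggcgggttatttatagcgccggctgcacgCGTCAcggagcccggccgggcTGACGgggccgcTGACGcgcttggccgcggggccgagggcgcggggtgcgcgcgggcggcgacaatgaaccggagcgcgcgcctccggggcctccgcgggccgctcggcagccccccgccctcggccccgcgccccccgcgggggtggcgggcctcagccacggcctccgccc
Nr4a3 promoter, chr4:48045055-48045354, plus strand: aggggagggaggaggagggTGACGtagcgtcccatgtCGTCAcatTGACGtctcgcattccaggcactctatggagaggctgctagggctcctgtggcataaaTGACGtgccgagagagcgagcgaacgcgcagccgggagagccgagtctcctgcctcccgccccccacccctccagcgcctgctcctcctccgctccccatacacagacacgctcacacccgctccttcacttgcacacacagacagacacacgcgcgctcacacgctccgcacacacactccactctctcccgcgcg
Egr2 promoter, chr10:67537619-67537918, plus strand: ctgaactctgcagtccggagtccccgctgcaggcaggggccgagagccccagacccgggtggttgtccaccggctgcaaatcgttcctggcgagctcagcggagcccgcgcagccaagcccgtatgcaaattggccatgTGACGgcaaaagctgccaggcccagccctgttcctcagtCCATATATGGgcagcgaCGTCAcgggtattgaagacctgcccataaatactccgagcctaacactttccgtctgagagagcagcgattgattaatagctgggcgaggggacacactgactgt

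Each of the 3 Nr4a windows held 4 copies of TGACG, counting both strands. Of all 32851 promoter windows, 20.8% held at least 1 copy and 76 windows, or 0.231%, held at least 4. The Nr4a1, Nr4a2 and Nr4a3 windows were 72.3%, 81.7% and 64.7% G or C. The share among windows of like composition was not taken. The full palindrome TGACGTCA was in none of the members' windows and in 1.79% of all windows. The Egr2 window shown is the first of 3 overlapping windows with the most matches among the 5 listed for this gene. It held 2 copies of TGACG and 1 serum response element, which 1.63% of all windows held. Of the EGR site (GCGGGGGCG or GCGTGGGCG, both strands) the Nr4a1 window held 1 match, and 3.47% of all windows held at least 1. The site of monomeric NR4A proteins (AAAGGTCA, 1.51% of all windows) and the STAT site (TTCNNNGAA, 8.30%) had no match in these windows. A match of letters is a description and does not show binding.

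Crem gave the clearest change among the members over the IL-7 time course in naive cells. Its brightest probe, ILMN_1242622, had deposited signals of 37.9 and 56.5 at 0 h, 384.8 and 746.6 at 6 h, and 103.7 and 102.8 at 24 h. Both 6 h arrays lay above every other naive array, and both 24 h arrays lay between the 0 h and the 6 h values. On the normalised log2 scale the means were 5.91 ± 0.50, 9.33 ± 0.45 and 6.87 ± 0.26 (SD, n = 2 arrays per time). Crem rose 10.7-fold at 6 h (log2 fold change 3.42 ± 0.31, SE, limma adjusted p = 0.0068). It then fell 5.50-fold from 6 to 24 h (-2.46 ± 0.31, adjusted p = 0.045) and stood 1.94-fold above 0 h at 24 h, which did not pass the test (0.96 ± 0.31, adjusted p = 0.12).

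The 3 Crem probes that could be tested went the same way. At 6 h against 0 h they gave log2 fold changes of 3.42, 3.23 and 2.71, each called in the fit of single probes, and at 24 h against 6 h they gave -2.46, -2.19 and -1.99. Probe ILMN_2602899 had signals of 35.2 and 44.0 at 0 h, 279.8 and 614.4 at 6 h, and 91.1 and 100 at 24 h. Probe ILMN_2964986 had 31.0 and 32.7, then 173.5 and 349.5, then 56.0 and 67.4. The time course on all 3 probes thus had one shape, with 6 h replicate 2 above 6 h replicate 1 on each. Of the other 4 Crem probes, 3 were not detected on any array and ILMN_1224623 was detected only on 24 h replicate 1, at 42.6. The sources used here do not say which Crem transcript forms each probe reads.

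**Figure D1:**
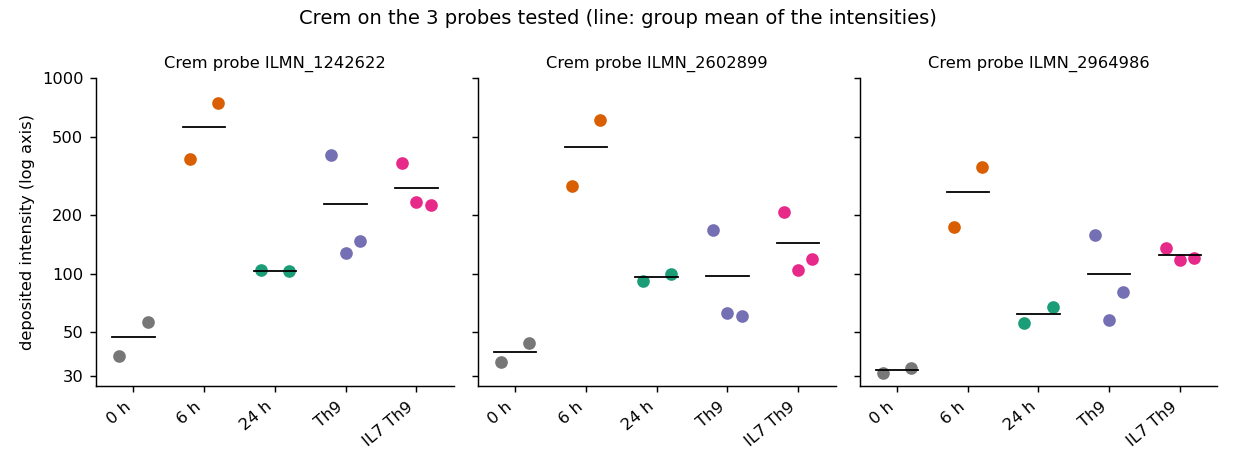
Deposited intensity (log axis) of the 3 Crem probes tested, by group, with 1 point per array and a line at the group mean. On each probe both 6 h arrays lie above the 0 h and 24 h arrays, from 384.8 and 746.6 on ILMN_1242622 down to 173.5 and 349.5 on ILMN_2964986.

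The rise of Crem at 6 h was as large without the array of 6 h replicate 1 (3.75 ± 0.29, adjusted p = 0.00016) and was also called without 6 h replicate 2 (3.11 ± 0.29, adjusted p = 5e-04). It lost the call, at a similar size, without 0 h replicate 1 (3.04 ± 0.32, adjusted p = 0.1) or 0 h replicate 2 (3.76 ± 0.33, adjusted p = 0.077). The fall from 6 to 24 h was called without either 6 h array (-2.78 and -2.15). It lost the call without 0 h replicate 1 or 2 (-2.44 and -2.45, adjusted p = 0.19 and 0.2) and without 24 h replicate 1 or 2 (-2.28 and -2.65, adjusted p = 0.48 and 0.37). The level left at 24 h was called against 0 h only where a 6 h array was out of the estimate of spread or a replicate block was fitted: 0.97 ± 0.24 without 6 h replicate 1 (adjusted p = 0.023) and 0.96 ± 0.23 without 6 h replicate 2 (adjusted p = 0.022).

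Across the 6 tested members, 2 rose (Crem and Nr4a2), 0 fell and 4 did not pass the test at 6 h. Over all 11065 features 4.10% rose and 5.32% fell at 6 h. The members' median log2 fold change was -0.02, and that of all features was -0.03. At 24 h against 0 h 0 members rose, 1 fell (Ier2) and 5 did not pass, against 3.30% of all features that rose and 2.86% that fell. The members' median was -1.33, and that of all features -0.0032. From 6 to 24 h all 6 tested members were lower, 1 of them by a called fall (Crem), against 0.108% of all features that rose and 0.289% that fell. Their median was -2.30, and that of all features 0.04. The comparisons share the same arrays, so their values are given side by side.

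The 3 Egr genes followed another course, high at 0 h and low at 24 h, with the 6 h arrays far apart. Egr1 had signals of 2050.5 and 1520.4 at 0 h, 2718.6 and 219.8 at 6 h, and 144.7 and 105.2 at 24 h. Egr3, on its detected probe, had 358.7 and 273.2 at 0 h, 366.4 and 78.4 at 6 h, and 15 (not detected) and 24.5 at 24 h. Egr2 had 119.1 and 101.0 at 0 h, 185.2 and 53.1 at 6 h, and 17.6 and 12.6 at 24 h, where it was not detected. For each of the 3 genes the higher 6 h value came from replicate 1, the array with B cell and myeloid transcripts, and lay above both 0 h arrays. The lower one came from replicate 2 and lay between the 0 h and the 24 h values. The SD between the 6 h arrays on the normalised log2 scale was 2.69 for Egr1, 1.34 for Egr2 and 1.68 for Egr3, against at most 0.10 between the 0 h arrays.

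**Figure D2:**
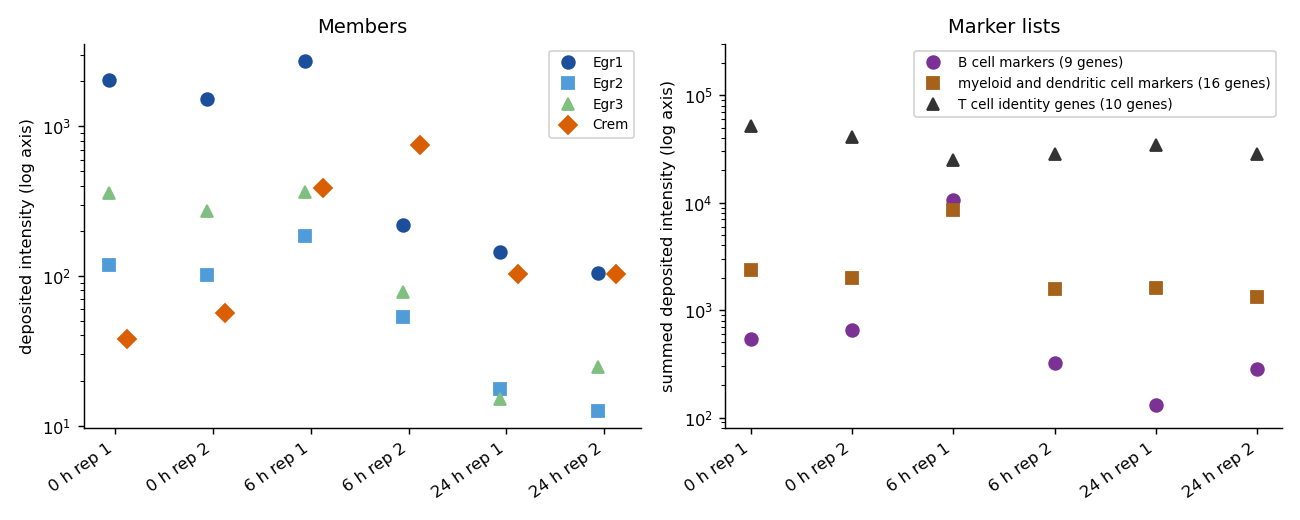
Left, deposited intensity (log axis) of Egr1, Egr2, Egr3 and Crem on each of the 6 naive arrays; right, summed deposited intensity (log axis) of B cell markers, myeloid and dendritic cell markers and T cell identity genes on the same arrays. The 6 h replicate 1 array has both the highest Egr1 signal (2718.6) and the highest B cell marker sum (10614.5), while Crem is highest on 6 h replicate 2 (746.6).

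No direction at 6 h can be given for the Egr genes, since it depends on which 6 h array is kept. With both, the log2 fold changes against 0 h were -0.83 ± 1.08 for Egr1 (adjusted p = 0.65), 0.19 ± 0.55 for Egr2 (adjusted p = 0.85) and -0.48 ± 0.71 for Egr3 (adjusted p = 0.69). Without replicate 1, Egr1 fell by 2.73 ± 0.15 (adjusted p = 4.2e-05), Egr3 fell by 1.68 ± 0.26 (adjusted p = 0.0034) and Egr2 fell by 0.77 ± 0.15 (adjusted p = 0.01). Without replicate 2, Egr1 stood at 1.07 ± 0.15, Egr2 at 1.14 ± 0.15 and Egr3 at 0.71 ± 0.25. In these fits the lone 6 h array is assumed to vary like the other groups. Without replicate 1, 5 of the 6 members were called at 6 h, 2 higher and 3 lower, while the share of all 10866 features tested was 11.3% higher and 13.1% lower.

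At 24 h the Egr genes were low on both arrays, and the 24 h arrays did not overlap with the 0 h arrays for any of the 3. The share of all features with groups apart was not taken, for these or the other members. Groups of few arrays can lie apart by chance. Egr1 was 11.6-fold lower than at 0 h (-3.54 ± 1.08, adjusted p = 0.11) and Egr3 8.62-fold lower (-3.11 ± 0.71, adjusted p = 0.056). Egr3 was detected on 1 of the 2 arrays at 24 h, so its fold rests in part on background. Egr2 was at least 3.33-fold lower (adjusted p = 0.09). None of the 3 passed this test, in which the 6 h arrays enter the estimate of spread. Egr3 passed with the stricter filter (adjusted p = 0.048) and with scaling to the 75th percentile (-3.08, adjusted p = 0.05 after rounding), and all 3 passed when the 12 arrays were fitted together (adjusted p = 0.031 for Egr1, 0.041 for Egr2 and 0.011 for Egr3). Without 6 h replicate 1 the changes were -3.54 ± 0.12 for Egr1 (adjusted p = 5.2e-06) and -3.14 ± 0.21 for Egr3 (adjusted p = 6.8e-05), and Egr2 was lower too (adjusted p = 5.3e-05). Without 6 h replicate 2 they were -3.55 and -3.11, and Egr2 was again lower. In the fit without 6 h replicate 1, 10.7% of all features rose and 11.4% fell at 24 h. A fit of the 0 h and 24 h arrays alone called them too, with adjusted p-values of 4.4e-06 for Egr1, 6e-05 for Egr3 and 4.7e-05 for Egr2. That fit called 2436 of 10682 features, so a call there is less rare than in the fit of all 6 arrays. Markers of other cells were lower at 24 h as well. Against 0 h all 6 measured B cell markers (median -1.11) and all 11 myeloid and dendritic cell markers (median -0.73) were lower, 0 of them by a call in the limma fit of all 6 arrays. Of 4 measured natural killer cell markers 3 fell. The drop was not limited to markers of other cells. Of 9 measured T cell identity genes 8 were lower at 24 h (median -0.43), 1 of them, Cd4, by a call. Where 6 h replicate 1 was left out, all 5 B cell and all 8 myeloid and dendritic cell markers were lower at 24 h. So were 8 of the 9 T cell identity genes. The part of the other cells in the Egr result was not tested.

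From 6 to 24 h the 3 Egr genes were lower whichever 6 h array was kept. Egr1 was at -2.71 ± 1.08 (adjusted p = 0.28), Egr3 at -2.62 ± 0.71 (adjusted p = 0.17), and Egr2, not detected at 24 h, was at least 3.80-fold lower (adjusted p = 0.16). Without replicate 1 Egr1 fell by 0.81 and Egr3 fell by 1.46 (adjusted p = 0.036 and 0.033), and Egr2 was called lower (adjusted p = 0.012). In that fit 163 of all 10866 features rose and 156 fell. Without replicate 2 Egr1 stood at -4.62 and Egr3 at -3.82, and Egr2 was lower too. The only 6 h array left in that fit is replicate 1, with its B cell and myeloid transcripts.

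**Figure D3:**
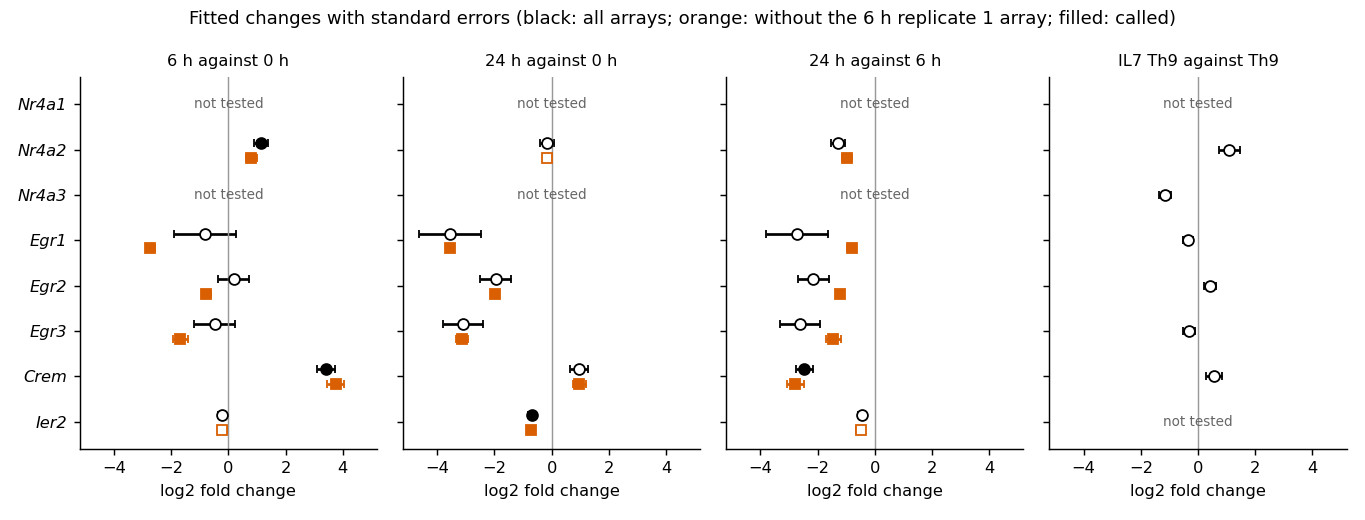
Log2 fold changes of the members with standard errors in the 4 comparisons of groups, with all arrays (black) and without the array of 6 h replicate 1 (orange squares); filled symbols passed an adjusted p of 0.05. Crem lies at 3.42 at 6 h with all arrays and at 3.75 without that array, while Egr1 moves from -0.83 to -2.73.

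Of the NR4A genes, only Nr4a2 was detected on both 6 h arrays of the naive cells. Its signals were 22.3 and 13.7 (not detected) at 0 h, 57.5 and 40.2 at 6 h, and 20.3 and 9.1 at 24 h, where it was not detected. The 6 h arrays lay above all other naive arrays. Nr4a2 rose 2.19-fold at 6 h (1.13 ± 0.24, adjusted p = 0.04) and was at least 2.02-fold lower at 24 h than at 6 h (adjusted p = 0.11). At 24 h against 0 h it was not called (adjusted p = 0.73). The rise at 6 h was called without 6 h replicate 1 (0.81 ± 0.18, adjusted p = 0.015) and without 6 h replicate 2 (1.47 ± 0.18, adjusted p = 0.0017). It lost the call without either 0 h array (1.20 and 1.04, adjusted p = 0.19 and 0.23) and without either 24 h array (1.12 and 1.14, adjusted p = 0.093 and 0.094). The later difference from 6 h was called without 6 h replicate 1 (adjusted p = 0.037) or 6 h replicate 2 (adjusted p = 0.001).

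Nr4a1, the member of the family also known as Nur77, was at the detection limit. Its 1 probe was detected on 6 h replicate 1, at 28.0, and on Th9 replicate 2, at 20.7. On the other 10 arrays it was not detected, with signals of at most 17.8. Nr4a3 was not detected on any naive array by any of its 3 probes, at 15.7 or less. These low signals mean that no fold can be given for Nr4a1 or Nr4a3 in naive cells.

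Ier2 was a dim transcript that was lower on the later arrays. Its signals were 58.5 and 44.4 at 0 h, 29.5 and 39.0 at 6 h, and 26.3 and 22.1 at 24 h. The 0 h arrays lay above all the others, and the 24 h arrays below. Ier2 fell 1.62-fold at 24 h (-0.69 ± 0.13, adjusted p = 0.034) and stood at -0.23 ± 0.13 at 6 h (adjusted p = 0.29), or at -0.21 ± 0.15 without 6 h replicate 1 (adjusted p = 0.36). The fall at 24 h was called without either 6 h array (-0.70 and -0.69, adjusted p = 0.0066 and 0.0069). It lost the call without either 0 h array (-0.68 and -0.69, adjusted p = 0.22 and 0.2) or either 24 h array (-0.60 and -0.78, adjusted p = 0.22 and 0.18).

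In Th9 cells the comparison asks whether 48 h of IL-7 before the Th9 culture changed these genes. None of the 6 tested members was called by limma. An unadjusted p under 0.05 was found for 2 of them, Nr4a3 and Nr4a2, and for 956 of all 9635 features. Over all 9635 features 0.156% rose and 0.187% fell. The members' median log2 fold change was 0.05, and that of all features was -0.01.

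Nr4a3 had the lowest unadjusted p among the members in Th9 cells. Its probe ILMN_1233670 had signals of 132.3, 110.4 and 57.4 in Th9 and 41.4, 17.9 and 34.0 in IL7 Th9. Probe ILMN_1257794 had 108.3, 88.9 and 61.0 in Th9 and 36.2, 14.2 and 31.7 in IL7 Th9. On both probes every IL7 Th9 array lay below every Th9 array. The log2 fold change was -1.15 ± 0.22 (2.22-fold lower, SE, n = 3 arrays per group, limma adjusted p = 0.085), and -1.13 ± 0.19 on the second probe (adjusted p = 0.054 in the fit of single probes). The normalised log2 means were 6.75 ± 0.41 in Th9 and 5.59 ± 0.20 in IL7 Th9 (SD). Nr4a3 passed the test with the 12 arrays normalised together (-1.22 ± 0.20, adjusted p = 0.021) and with an offset of 50 (adjusted p = 0.045). It did not pass with the stricter filter (adjusted p = 0.063), scaling (0.11), a replicate block (0.11) or no filter (0.33). The third probe, ILMN_2666945, was not detected on any array. Beside this difference the summed B cell marker signal was 1052.8 to 1827.3 in Th9 and 607.2 to 1194.6 in IL7 Th9, and the myeloid and dendritic sum 1227.4 to 2786.3 and 983.9 to 1605.7. The groups overlapped in both sums, and their part in the result was not tested.

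Nr4a2 did not pass the test in Th9 cells. Its signals were 18.7 (not detected), 4.1 (not detected) and 25.7 in Th9 and 107.5, 22.6 and 34.1 in IL7 Th9. The deposited signals of the groups overlapped, with replicate 1 of IL7 Th9 far above the rest. After normalisation every IL7 Th9 array lay above every Th9 array, at 5.56 to 6.93 against 4.52 to 5.48 on the log2 scale. The difference was 1.09 ± 0.37 (adjusted p = 0.37), and 2 of the 3 Th9 arrays did not detect the probe.

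The Egr genes and Crem were detected on all 6 Th9 arrays, and the groups overlapped for the probe of each given here, in the deposited signals and after normalisation. Egr1 had 1575.6, 1292.1 and 1488.9 in Th9 and 1053.0, 713.4 and 1519.6 in IL7 Th9 (-0.35 ± 0.17, adjusted p = 0.56). Egr2 had 661.1, 334.3 and 508.7 in Th9 and 490.1, 456.1 and 899.0 in IL7 Th9 (0.43 ± 0.21, adjusted p = 0.56). Egr3 had 1076.7, 855.1 and 957.2 in Th9 and 1013.5, 387.8 and 857.9 in IL7 Th9 (-0.32 ± 0.21, adjusted p = 0.7). The 3 genes did not share a direction, and none passed the test. Crem had 406.6, 128.1 and 147.4 in Th9 and 368.5, 231.4 and 223.6 in IL7 Th9 (0.56 ± 0.28, adjusted p = 0.56). Its other probes were at 0.75 ± 0.24 and 0.56 ± 0.21 (adjusted p = 0.34 and 0.42). Ier2 was not detected on any Th9 array, with signals of -1.4 to 10.1.

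**Figure D4:**
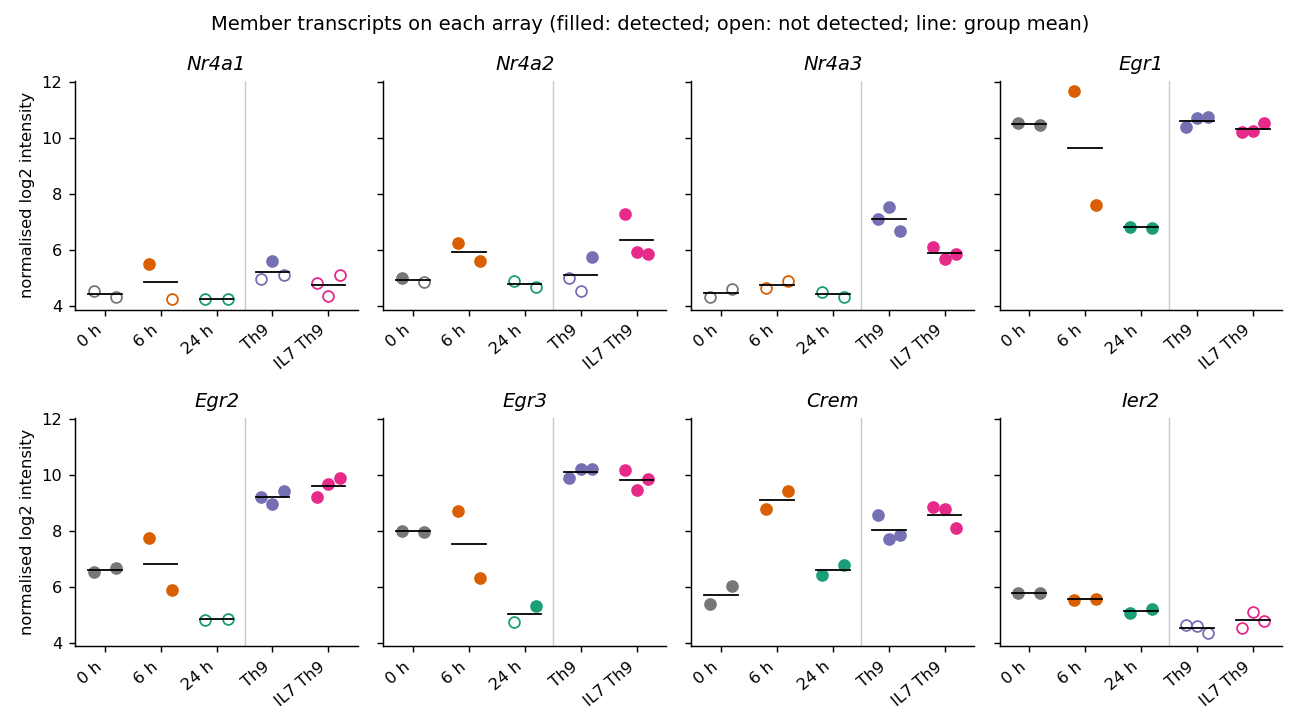
Normalised log2 intensity of each member's brightest tested probe on the 12 arrays, normalised together, by group, with filled points where the probe was detected and a line at the group mean. Egr2 and Egr3 are highest in the Th9 groups, Crem is highest at 6 h, and Ier2 is detected only in naive cells.

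Whether IL-7 acted differently in the naive and the Th9 setting was tested as a difference of differences over the 12 arrays. At 6 h 2 of the 8 members were called, against 3.67% of all 12248 features in either direction. The IL-7 effect on Crem was larger in naive cells by 2.87 ± 0.46 on the log2 scale (adjusted p = 0.009), and without 0 h replicate 1 by 2.53 ± 0.51 (adjusted p = 0.054). It was 3.21 ± 0.50 without 6 h replicate 1 (adjusted p = 0.0048), and without 6 h replicate 2 it was 2.54 ± 0.50 (adjusted p = 0.019). The difference for Nr4a3 also passed (1.52 ± 0.32, adjusted p = 0.028). Nr4a3 was not detected on any naive array and passed the filter only through the Th9 groups, so the naive side is background and no difference of response is read from this value. It was 1.65 without 6 h replicate 1 (adjusted p = 0.03), and with a replicate block it lost the call (adjusted p = 0.052). It lost the call too without 0 h replicate 1 (1.36, adjusted p = 0.14), 0 h replicate 2 (1.65, adjusted p = 0.093), 6 h replicate 2 (1.39, adjusted p = 0.071), 24 h replicate 2 (1.52, adjusted p = 0.051) or Th9 replicate 1 (1.52, adjusted p = 0.053). At 24 h 0 of the 8 members were called by limma, against 3.75% of all features. An unadjusted p under 0.05 was found for 6 of the members and for 2210 of all 12248 features. The 6 include Nr4a3, not detected on any naive array, and Ier2, not detected on any Th9 array. For these genes the undetected side is background. The Egr differences at 24 h were -3.38 ± 1.13 for Egr1 and -2.66 ± 0.73 for Egr3 (adjusted p = 0.14 and 0.074), and that of Egr2, not detected at 24 h, had an adjusted p of 0.07. In the 12 fits without 1 array these differences ran from -3.43 to -3.26 for Egr1 and from -2.93 to -2.37 for Egr3. That of Egr2 was negative in each. The treatments differ in length and the Th9 cells had a culture period after IL-7, so the contrast sets unlike schedules side by side. The naive side also joins IL-7 with time in culture.

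The order of the 5 groups differed from gene to gene. These orders use the 12 arrays normalised together, and experiment and chip cannot be told apart in them. Egr2 had means of 9.59 ± 0.35 in IL7 Th9 and 9.19 ± 0.23 in Th9 (SD), which overlapped, then 6.80 ± 1.32 at 6 h and 6.60 ± 0.09 at 0 h, which overlapped, and 4.82 ± 0.02 at 24 h. Egr3 stood at 10.10 ± 0.18 in Th9 and 9.81 ± 0.36 in IL7 Th9, which overlapped, then 7.97 at 0 h and 7.51 ± 1.69 at 6 h, which overlapped, and 5.01 ± 0.40 at 24 h. Both genes were thus above every naive array in the Th9 groups. Egr1 differed from them: Th9 (10.63 ± 0.20), 0 h (10.49 ± 0.05), IL7 Th9 (10.32 ± 0.17) and 6 h (9.64 ± 2.86) overlapped in turn, and only 24 h, at 6.81 ± 0.02, stood apart.

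Nr4a3 was highest in Th9 (7.10 ± 0.42), apart from IL7 Th9 (5.88 ± 0.22), and the naive groups, all undetected, lay below both. Nr4a2 was highest in IL7 Th9 (6.36 ± 0.80), then 6 h (5.92 ± 0.45), Th9 (5.10 ± 0.62), 0 h (4.91 ± 0.11) and 24 h (4.79 ± 0.15), and each overlapped with the next. Crem was highest at 6 h (9.09 ± 0.46), overlapping with IL7 Th9 (8.57 ± 0.41), which overlapped with Th9 (8.04 ± 0.46). Below them 24 h (6.59 ± 0.25) and 0 h (5.69 ± 0.46) each stood apart. Ier2 ran from 5.76 at 0 h through 5.55 ± 0.03 at 6 h to 5.14 ± 0.10 at 24 h, with no detection in the Th9 groups. Nr4a1 had 1 detected array each in Th9 and at 6 h and none in the other groups, and its order says little.

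The other immediate early genes were compared through a list of 42, of which 36 were measured in naive cells. For this and the lists below, 4.10% of all 11065 features rose and 5.32% fell at 6 h. At 24 h 3.30% rose and 2.86% fell, and from 6 to 24 h 0.108% and 0.289%. Of 9635 features in Th9 cells 0.156% rose and 0.187% fell. At 6 h 4 genes of the list rose and 1 fell. They were Fosl2, an AP-1 subunit (3.56 ± 0.14), the G protein regulator Rgs1 (2.47 ± 0.26), the stress gene Gadd45b (1.46 ± 0.19) and Myc (0.88 ± 0.16), while the phosphatase gene Dusp2 fell by 1.73 ± 0.29. The list's median was 0.18, against -0.03 for all features. Without the array of 6 h replicate 1, the median of 34 was -0.30, against -0.00029 for all features. The sign of this list's median at 6 h thus changed with that array. At 24 h Myc rose (1.64 ± 0.16) and 4 fell, the activation marker gene Cd69 (-3.82 ± 0.44), Dusp2 (-1.96 ± 0.29), Gadd45b (at least 2.22-fold lower) and Phlda1 (at least 2.37-fold lower), the last 2 not detected at 24 h. The median was -0.72, and 30 of the 36 were lower than at 0 h. Without 6 h replicate 1, the median of 34 was -0.75, against -0.0015 for all features.

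From 6 to 24 h 3 of the 36 fell, Cd69 (-3.70 ± 0.44), Fosl2 (-3.61 ± 0.14) and Gadd45b (at least 6.08-fold lower), and 34 were lower, with a median of -1.05. Cd69 stood at -2.99 ± 0.22 without 6 h replicate 1. In the fit without 6 h replicate 1, the median of 34 was -0.45, against 0.0069 for all features. Fosl2 and Crem both were higher at 6 h and lower again at 24 h. In Th9 cells 1 of 34 measured genes of the list fell, Phlda1 (-2.54 ± 0.35), and 0 rose.

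Genes linked in the literature to NR4A or EGR factors in T cells, such as inhibitory receptors and ubiquitin ligases, had 19 measured members in naive cells. At 6 h 5 rose and 0 fell, with a median of 0.33. Ctla4, an inhibitory receptor, rose by 3.30 ± 0.34, Bhlhe40 by 3.13 ± 0.54, the factor gene Irf4 by 2.84 ± 0.37, Ndrg1 by 2.21 ± 0.27, and Il2ra, the high-affinity chain of the interleukin-2 receptor, by 1.24 ± 0.15. The rise of Bhlhe40 was 2.26 ± 0.20 without 6 h replicate 1. At 24 h 4 rose and 1 fell. Ndrg1 stood at 2.11 ± 0.27, Ctla4 at 1.90 ± 0.34, Il2ra at 1.83 ± 0.15 and Socs1, a feedback inhibitor of cytokine signalling, at 0.96 ± 0.18, while Bcl6, a repressor that drives the follicular helper T cell programme, fell by 1.53 ± 0.29. From 6 to 24 h Irf4, not detected at 24 h, was at least 7.47-fold lower (adjusted p = 0.043), and 18 of the 19 did not pass. With the array of 6 h replicate 1 left out, the median of the 19 was 0.46 at 6 h, 0.13 at 24 h and -0.19 from 6 to 24 h. In Th9 cells Tox, a nuclear factor of T cell exhaustion, fell by 1.42 ± 0.22 after IL-7 (adjusted p = 0.045), and the other 20 measured genes did not pass.

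Of 20 measured genes of cyclic AMP signalling and the CREB family, 0 rose and 2 fell at 6 h. They were the adenylyl cyclase gene Adcy7 (-1.12 ± 0.18) and Creb1, which encodes CREB itself (-0.90 ± 0.16). In the limma fit of all 6 naive arrays, none of the 20 was called at 24 h or from 6 to 24 h. None of 16 was called in Th9 cells. Some of the 20 were called in the fit without 6 h replicate 1, in which more of all features were called too. Without 6 h replicate 1, the median of the 20 was -0.14 both at 6 h and at 24 h, and -0.03 from 6 to 24 h. Of 9 measured partners and corepressors of the NR4A and EGR proteins, Srf, the serum response factor, fell by 0.96 ± 0.19 at 6 h and Nab2, a corepressor of EGR proteins, was at least 1.41-fold lower at 24 h (adjusted p = 0.045), where it was not detected. When 6 h replicate 1 was left out, the median of 8 was -0.17 at 6 h and -0.08 at 24 h. Of 20 measured genes of calcium, NFAT and MAP kinase signalling, the calcineurin regulator Rcan3 (1.13 ± 0.24) and the calcium channel gene Orai1 (0.72 ± 0.13) rose at 6 h and the Ras activator Rasgrp1 (1.14 ± 0.23) rose at 24 h. With 6 h replicate 1 left out, the median of these 20 was 0.12 at 6 h and 0.08 at 24 h, against -0.00029 and -0.0015 for all features. Each list gene named here with a call in naive cells was also called without 6 h replicate 1, in the same direction.

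The genes with the most similar pattern were found as the 3 with the smallest root mean square difference over the 6 arrays of an experiment, among 8440 compared in naive cells and 7752 in Th9 cells. The naive arrays include 6 h replicate 1, with its B cell and myeloid transcripts, and no distances were taken without it. In naive cells Egr1 was closest to Junb (0.32 log2 units), Ppp1r15a (0.34) and Egr3 (0.50). Egr3 was closest to Junb (0.28), Ppp1r15a (0.37) and Dusp1 (0.39), and Egr2 to Jun (0.35), H2-Oa (0.36) and Nfkbid (0.36). Junb, Jun, Dusp1 and Nfkbid are on the immediate early list, and H2-Oa is a gene of antigen presentation. Crem was closest to Gpr83 (0.42), Lilr4b (0.44) and Tmem64 (0.57), and Nr4a2 to Odc1, the first enzyme of polyamine synthesis (0.13), Cd200 (0.17) and Dgat1 (0.18). Ier2 was closest to Def6, Mknk2 and Map3k14, at 0.06 to 0.07.

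In Th9 cells Nr4a3 was closest to Cask, Bmyc and Haao (0.18 to 0.19), and Nr4a2 to Inhba, Tha1 and Sertad1 (0.25 to 0.30). Crem was closest to Btla, an inhibitory receptor (0.12), Pde4b, a phosphodiesterase that degrades cyclic AMP (0.12), and Armcx6 (0.14). The Egr genes varied little there, with ranges of 0.62 for Egr1, 1.01 for Egr2 and 0.83 for Egr3 over the 6 arrays, and their closest genes were Recql4, Ube2cbp and Vamp7. These distances describe 6 arrays each and carry no test.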

How the data were processed

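RNA of 12 samples was measured on Illumina mouse BeadChips, 1 array each, with each experiment on its own chip, per the labels. For each probe the deposited intensity is a background-subtracted linear signal from GenomeStudio, per the submitters' processing notes, and was not normalised between arrays. The authors also deposited a detection p-value per probe and array. Another deposited table, of scaled intensity values, was not used for results. Its values under the same probe names did not follow the first table (Spearman -0.0083 to 0.0019), and its column medians ran from 2.7 to 5.2, with scale and centring unknown. Gene names came from GEO's platform annotation, in which 34885 probes had 1 symbol, 18 several and 10378 none.

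Signals were background-corrected, quantile-normalised within each experiment and log2-transformed by neqc (limma 3.58.1, R 4.3.3, offset 16). Features detected on at least 2 arrays (first experiment, and all 12) or 3 (second) were kept, with the brightest probe for each gene. Groups were compared with lmFit and eBayes (3 and 4 residual degrees of freedom, 7 over all arrays). Tests were 2-sided, with Benjamini-Hochberg adjustment over all features, and the call threshold was 0.05. "At least" folds set undetected arrays to their lowest detected level and are given only where no array of a group detected the probe. The code was tested on simulated data. Alternatives changed the scaling, offset, filter, probe choice, fit, block and each array in turn. The number of arrays limits the precision.

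Named were all members, the 3 nearest genes for each, and for each list the called genes (at most 4 for each comparison, by size; at 6 h the fifth called genes Myc and Il2ra and at 24 h Phlda1 and Socs1 were added after their values were seen). Il9 was also added after its values were seen. The members and lists were chosen with earlier results of these data known.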

Additional observations from a re-analysis of the deposited data

Results flagged for a closer look

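By the test of the difference itself, the change of Crem at 6 h in naive cells differed from its change after IL-7 in Th9 cells. A value for Nr4a3 also passed. The naive change joins IL-7 with time in culture, and the settings had unlike schedules of IL-7. For Crem the effect at 6 h in naive cells minus the effect in Th9 cells was 2.87 ± 0.46 on the log2 scale (limma adjusted p = 0.009). In naive cells Crem was higher on both 6 h arrays than at 0 h. In Th9 cells the groups overlapped on probes ILMN_1242622 and ILMN_2602899. On ILMN_2964986 every normalised IL7 Th9 array lay above every Th9 array, at 6.97 to 7.55 against 6.38 to 6.96. For Nr4a3 the same difference was 1.52 ± 0.32 (adjusted p = 0.028). Its naive arrays were all below detection, so the naive side is background, and the gene passed the filter only through the Th9 groups. The call was lost with a replicate block (adjusted p = 0.052) and in 5 of the 12 fits without 1 array, those without 0 h replicate 1 or 2, 6 h replicate 2, 24 h replicate 2 or Th9 replicate 1 (adjusted p = 0.14, 0.093, 0.071, 0.051 and 0.053).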

How the results depend on the processing

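Counts over all features moved with the arrays kept. Leaving out 1 array in turn gave 3 to 2645 calls at 6 h against 0 h (1043 with all arrays), 1 to 2418 at 24 h against 0 h (682), 0 to 1476 at 24 h against 6 h (44) and 8 to 62 in Th9 cells (33). It gave 77 to 719 and 64 to 676 for the differences of IL-7 effects at 6 and 24 h (450 and 459). Members called ran from 0 to 5 in each of the 3 naive comparisons and from 0 to 3 for both differences of effects, and stayed at 0 in Th9 cells. The highest counts at 6 h came without 6 h replicate 1, and the lowest without a 0 h array. Without 1 array, Egr1, Egr2 and Egr3 at 6 h ran from -2.73 to 1.07, -0.77 to 1.14 and -1.68 to 0.71. Their differences of effects at 6 h ran from -2.58 to 1.49, -1.13 to 0.73 and -1.37 to 1.03, and that of Nr4a2 from -0.59 to 0.21.

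Other settings moved fewer results, and the cause was not tested except where fewer arrays or more features enter by construction. No filter (29453 features) gave 519, 211, 7 and 4 calls for 6 h, 24 h, 24 h against 6 h and Th9, with 1 member called at 6 h and 0 at 24 h against 6 h. The offset of 50 gave 67 calls at 24 h against 6 h and 88 in Th9 cells, with 0 members called at 24 h and 1 in Th9 cells. The stricter filter called 2 members at 24 h. The 12 arrays fitted together gave 72 calls at 24 h against 6 h and 116 in Th9 cells, with 1, 3 and 1 members called at 6 h, at 24 h and in Th9 cells. Fits of only the 2 groups gave 184, 2436 and 4 calls, with 1, 5 and 0 members. With each experiment normalised on its own, 3 members were called for the difference of effects at 24 h.

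The replicate block gave 681 calls at 6 h, 449 at 24 h and 5 at 24 h against 6 h, and it called 1 member for the difference of effects at 6 h. It ended the call of Ier2 at 24 h (-0.69, adjusted p = 0.057) and of the Nr4a3 difference (1.52, adjusted p = 0.052), and Crem at 24 h passed (0.96, adjusted p = 0.04). The labels do not say whether replicate numbers pair the samples, and the correlations below, over few arrays, cannot settle it. Same-numbered arrays correlated in their deviations at 0.063, 0.144 and -0.185 in naive cells and at -0.061, -0.099 and 0.289 in Th9 cells.

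Scaling to the 75th percentile kept every member's direction in the comparisons of groups and moved the median of all features by less than 0.1. It split the calls into 684 rises and 464 falls at 6 h (454 and 589 by quantile normalisation), 553 and 290 at 24 h (365 and 317), 257 and 130 for the difference at 6 h (232 and 218) and 229 and 125 at 24 h (252 and 207). It ended the call of Ier2 at 24 h (adjusted p = 0.051), and that of Nab2 (adjusted p = 0.089), and Egr3 at 24 h passed (-3.08, adjusted p = 0.05 after rounding). The Nr4a2 difference of effects at 6 h (-0.25) changed sign under scaling (0.18) and with each experiment normalised on its own (0.039), and was not called in any of these. Nr4a2 at 6 h also lost its call with no filter (adjusted p = 0.11), with all 12 arrays (0.25) and with 2 groups (0.091). Dim probes (Nr4a1, Nr4a3, Ier2 and Nr4a2) are the ones that signal over background limits most.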
